A study of Mus musculus with 14 samples.

Results

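The tubulin folding cofactors are the 5 genes *Tbca*, *Tbcb*, *Tbcc*, *Tbcd* and *Tbce*, chosen by name among 20337 genes with a symbol, and each was represented by 1 RefSeq transcript of the 26495 counted. Their transcripts were measured by RNA-seq in full-grown mouse oocytes whose nucleus, the germinal vesicle, was still intact. The question was how they respond when oocytes lose the slicing activity of AGO2, AGO2 itself or DICER, the enzyme that makes microRNAs and endogenous short interfering RNAs (endo-siRNAs). *Ago2* fl/fl oocytes (3 libraries) carry floxed *Ago2* alleles without Cre and were the controls. *Ago2* ADH oocytes (3 libraries) come from fl/ADH females in which Cre, driven by the oocyte-specific *Zp3* promoter, removes the floxed allele, so that the remaining allele encodes an AGO2 that cannot cleave RNA. *Ago2* null oocytes (2 libraries) come from fl/fl females with the same Cre. *Dicer* WT and *Dicer* KO oocytes (3 libraries each) come from wild-type females and from females that lack *Dicer* only in oocytes. Every library was made from 20 oocytes pooled from 3 mice by the labels, or 3 to 4 by the methods, of 4 to 6 weeks, collected 48 h after 5 IU of equine chorionic gonadotropin and freed of cumulus cells. The background was mostly C57BL6, from a cross of 3 transgenic strains. *Zp3* is active in growing oocytes, so product made before the deletion can persist.

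Tubulin does not fold on its own. The prefoldin complex hands newly made alpha- and beta-tubulin to the chaperonin CCT, which releases each partly folded protein to a cofactor. TBCA takes up beta-tubulin and TBCB alpha-tubulin. TBCD and TBCE then hold beta- and alpha-tubulin in one complex with the small GTPase ARL2, and TBCC joins it and triggers GTP hydrolysis, which releases the assembled dimer. TBCD and TBCE can also take dimers apart. The tubulin pool made and recycled in this way is the material from which the oocyte builds its meiotic spindle.

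*Tbcd* was the only member whose change in transcript level passed the test against controls. It rose 7.12-fold in *Ago2* ADH, 7.34-fold in *Ago2* null and 7.42-fold in *Dicer* KO oocytes over the matching controls, while *Tbca*, *Tbcb*, *Tbcc* and *Tbce* did not pass the test in any of these comparisons. *Tbcd* (NM_029878) lies on the plus strand of chromosome 11 at 121451949 to 121617164 of GRCm38, with 39 exons and 3906 exonic bases, of which 91.9% are coding. *Tbca*, its partner on beta-tubulin, lies on the plus strand of chromosome 13 at 94788910 to 94842922. These genes act one after the other on beta-tubulin, and of the pair *Tbcd* alone passed the test. The 250 bases before the RefSeq start of both, which lies inside the GENCODE spans just given, are therefore shown. They are from RefSeq (GRCm38.p6), 5′ to 3′ on the plus strand, at chr11:121451741-121451990 for *Tbcd* and chr13:94788670-94788919 for *Tbca*. Capitals mark a CCAAT box (CCAAT, or ATTGG on the other strand) and GC boxes (GGGCGG or CCGCCC).
Tbcd: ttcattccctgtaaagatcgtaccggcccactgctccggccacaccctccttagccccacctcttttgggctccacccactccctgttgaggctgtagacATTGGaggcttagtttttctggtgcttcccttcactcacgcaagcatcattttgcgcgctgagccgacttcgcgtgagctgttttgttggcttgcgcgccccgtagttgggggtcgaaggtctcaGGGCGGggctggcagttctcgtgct
Tbca: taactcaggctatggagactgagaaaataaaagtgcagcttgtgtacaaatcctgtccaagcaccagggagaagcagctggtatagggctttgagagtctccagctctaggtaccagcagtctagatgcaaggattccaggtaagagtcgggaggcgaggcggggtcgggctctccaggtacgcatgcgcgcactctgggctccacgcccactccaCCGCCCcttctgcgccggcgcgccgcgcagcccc
The *Tbcd* window held 1 CCAAT box and 1 GC box, the *Tbca* window 1 GC box, and neither held a TATA box (TATAAA) on either strand. Of 32851 mouse promoter windows of the same length, 33.9% held a CCAAT box, 32.7% a GC box and 12.4% a TATA box. Each of the pair held 15 CG pairs, and 27.3% of all windows held as many or more. These are matches of letters, not measured sites.

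Libraries held between 29380403 and 58285057 counts on transcripts, so that 3 counts correspond to 0.0515 to 0.102 counts per 1000000 counts (CPM), and every member had at least 223 counts in every library. Reads with several alignments are tallied outside the transcripts. Several alignments could be kept per read, so a read may enter this tally more than once, and it is no count of reads. The tally moved with genotype. It was 30491868 to 32784116 in *Ago2* fl/fl controls against 70439237 to 86360995 in *Ago2* ADH and null. In the *Dicer* series it was 16525441 to 20627329 in WT against 28285150 to 42609210 in KO. How many reads lie behind these values was not tested. By the lane marks kept with the counts, no lane held 2 *Ago2* genotypes, so in that series the effects of lane and genotype cannot be told apart, and every *Dicer* library ran on a separate lane. *Ago2*, the targeted gene, fell in both mutants, with log2 fold changes of -0.87 (ADH) and -1.95 (null), and it also fell in *Dicer* KO, where it is not targeted (-0.56, adjusted p = 0.000545). *Dicer1* counts were higher in *Dicer* KO (log2 fold change 1.26) and in *Ago2* ADH and null oocytes (0.67 and 0.59), and a count over the whole transcript does not show which exons were lost, so it is no check of that label. The 10 oocyte markers summed to 10600 to 16560 CPM. The 10 granulosa cell markers summed to 39.4 to 44.6 CPM in *Ago2* fl/fl, 29.6 to 33.9 in *Ago2* ADH, 28.3 to 30.5 in *Ago2* null, 55.6 to 63.5 in *Dicer* WT and 52.3 to 54.3 in *Dicer* KO libraries. *Cyp19a1* gave at least 20.5 CPM of this sum in every library and *Kitl* 4.03 to 5.74 CPM. *Inha* was at 0.0323 to 1.62 CPM and *Fshr* at 0.0568 to 1.11 CPM. *Foxl2* was at 0 in all *Ago2* fl/fl and *Dicer* WT libraries. It had 2, 7 and 4 counts in *Ago2* ADH, 0 and 4 in *Ago2* null and 0, 1 and 5 in *Dicer* KO libraries. The 6 stroma markers summed to at most 1.44 CPM and the 2 blood cell markers measured to at most 0.0747. Their part in the results was not tested.

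*Tbcd* had 1011, 1041 and 896 counts in *Ago2* fl/fl controls, 6470, 6891 and 4954 in *Ago2* ADH, and 6939 and 6573 in *Ago2* null. In the *Dicer* series it had 588, 588 and 675 counts in WT and 3619, 3138 and 3936 in KO. Scaled for library size by edgeR's TMM method, these were 17.1 to 17.6 CPM in *Ago2* fl/fl and 14.6 to 16.1 CPM in *Dicer* WT libraries, against 114.6 to 126.4 CPM in *Ago2* ADH, 124.2 and 124.6 CPM in *Ago2* null and 111.0 to 116.7 CPM in *Dicer* KO libraries. No mutant library came near a control library, and the mutant libraries of all 3 kinds lay close together. A library is a pool of oocytes, so more RNA per oocyte and more oocytes with the RNA cannot be told apart.

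**Figure D1:**
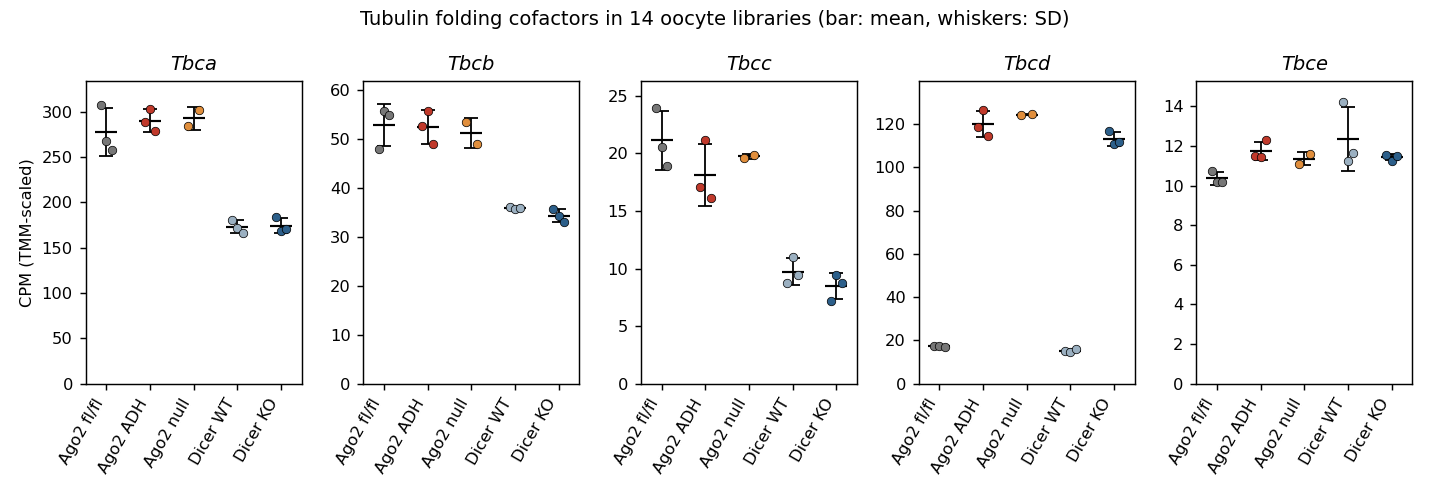
Normalized read counts (CPM, TMM-scaled, linear axes from 0) of the 5 cofactor genes, one panel per gene, with 1 point per library, the mean as a bar and the SD as whiskers (n = 3, in *Ago2* null n = 2). *Tbcd* lies at 14.6 to 17.6 CPM in the control libraries and at 111.0 to 126.4 CPM in the mutant libraries, and the mutant and control libraries of the other genes overlap or lie side by side.

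The log2 fold change of *Tbcd* was 2.83 for *Ago2* ADH against fl/fl oocytes (standard error 0.0628, adjusted p = 1.84e-17), 2.88 for *Ago2* null against fl/fl oocytes (standard error 0.0686, adjusted p = 3.95e-15) and 2.89 for *Dicer* KO against WT oocytes (standard error 0.0777, adjusted p = 1.00e-15), by the quasi-likelihood test of edgeR, adjusted by Benjamini-Hochberg over all transcripts. Both *Ago2* comparisons use the same 3 control libraries. Changes were common in these oocytes: 40.7% of 18835 tested transcripts passed a false discovery rate (FDR) of 1% in *Ago2* ADH, 37.2% of 19236 in *Ago2* null and 34.5% of 18570 in *Dicer* KO oocytes. Rises made up 20.5%, 18.1% and 16.7%, and falls 20.1%, 19.1% and 17.8%. One of the 5 members, *Tbcd*, passed in each comparison, a share below the shares of transcripts called in either direction and near those that rose. By size the rise of *Tbcd* was among the larger ones, since 1.09%, 1.28% and 0.969% of the tested transcripts had a higher log2 fold change in the respective comparison.

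The mutants were also compared with each other. Between *Ago2* ADH and *Ago2* null oocytes *Tbcd* had a log2 fold change of -0.06 (95% interval -0.20 to 0.08, adjusted p = 0.817). The difference between its *Ago2* ADH and *Dicer* KO effects was -0.11 (95% interval -0.30 to 0.08, adjusted p = 0.505), and that between its *Ago2* null and *Dicer* KO effects -0.05 (95% interval -0.25 to 0.16, adjusted p = 0.830). The effects therefore differed by no more than 0.30 on the log2 scale at the outer bounds of these intervals. In these comparisons 0.119%, 3.55% and 3.01% of all tested transcripts passed the FDR of 1%, and none of the 5 members did. With DESeq2 the count of members was also 0 in each, and with edgeR 0 of the 5 had an unadjusted p under 0.05 in each.

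*Tbca*, the most abundant member, had 17801, 15795 and 13439 counts in *Ago2* fl/fl, 15687, 16523 and 12044 in *Ago2* ADH, and 15845 and 15902 in *Ago2* null libraries. It had 6985, 6899 and 6974 counts in *Dicer* WT and 5684, 4760 and 5994 in *Dicer* KO libraries. In CPM these are 257.1 to 307.6, 278.6 to 303.1, 283.6 and 301.4, 166.3 to 180.6 and 168.4 to 183.4, and each mutant range overlaps that of its controls. Its log2 fold change was 0.11 (95% interval -0.01 to 0.23, adjusted p = 0.112) in *Ago2* ADH, 0.12 (-0.03 to 0.26, adjusted p = 0.175) in *Ago2* null and 0.01 (-0.12 to 0.15, adjusted p = 0.866) in *Dicer* KO oocytes. Without *Ago2* fl/fl replicate 1, which had the highest *Tbca* level of its group, the *Ago2* ADH value was 0.18 and passed the FDR of 1% (adjusted p = 0.00636). *Tbca* is a short gene of 4 exons and 559 exonic bases, and its transcript resembles 4 processed pseudogenes, the closest being *Gm6142* with 97.9% identity over 325 bases, so its counts may hold or lack reads shared with these copies.

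*Tbcb*, the cofactor that takes up alpha-tubulin (NM_025548, chromosome 7, 30224131 to 30232272, minus strand, 6 exons), had 2767, 3284 and 2865 counts in *Ago2* fl/fl, 2867, 3030 and 2111 in *Ago2* ADH, 2982 and 2581 in *Ago2* null, 1392, 1435 and 1506 in *Dicer* WT and 1103, 969 and 1160 in *Dicer* KO libraries. The log2 fold changes were 0.04 (95% interval -0.12 to 0.19, adjusted p = 0.695), -0.01 (-0.18 to 0.17, adjusted p = 0.965) and -0.06 (-0.23 to 0.11, adjusted p = 0.575) in *Ago2* ADH, *Ago2* null and *Dicer* KO oocytes. Once scaled, its mutant and control libraries overlapped in the *Ago2* series, and in the *Dicer* series KO lay just below WT, at 32.9 to 35.6 CPM in KO and 35.7 to 35.99 CPM in WT. The intervals leave room for changes of up to 0.23 on the log2 scale.

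*Tbcc*, which triggers the release of the dimer (NM_178385, chromosome 17, 46890684 to 46891847, plus strand), is a gene of 1 exon. It had 1386, 1213 and 988 counts in *Ago2* fl/fl, 928, 1153 and 696 in *Ago2* ADH, 1094 and 1049 in *Ago2* null, 337, 442 and 395 in *Dicer* WT and 223, 267 and 309 in *Dicer* KO libraries. It had the lowest values of the members in all 3 comparisons with controls, with log2 fold changes of -0.18 (95% interval -0.40 to 0.05, adjusted p = 0.180), -0.06 (-0.28 to 0.16, adjusted p = 0.666) and -0.19 (-0.52 to 0.14, adjusted p = 0.337), none of which passed the test. Scaled for library size, its mutant and control libraries overlapped in all 3 comparisons. Its scaled counts varied among replicates by up to 14.8% of their mean, the highest coefficient of variation of the 5 members, against at most 4.99% for *Tbcd*.

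*Tbce*, the partner of TBCD on alpha-tubulin (NM_178337, chromosome 13, 13997952 to 14039638, minus strand, 17 exons), had the fewest counts of the members in every library of the *Ago2* series, controls included. It had 622, 602 and 532 counts in *Ago2* fl/fl, 625, 625 and 531 in *Ago2* ADH, 621 and 611 in *Ago2* null, 549, 452 and 488 in *Dicer* WT and 357, 318 and 405 in *Dicer* KO libraries. Scaled, it was at 10.2 to 10.8 CPM in *Ago2* fl/fl, below the 11.5 to 12.3 CPM of *Ago2* ADH and the 11.1 and 11.6 CPM of *Ago2* null. These log2 fold changes of 0.23 (95% interval 0.01 to 0.44, adjusted p = 0.0750) and 0.17 (-0.07 to 0.41, adjusted p = 0.234) did not pass the test, nor did the -0.11 of *Dicer* KO oocytes (-0.39 to 0.17, adjusted p = 0.542), where the libraries overlapped at 11.25 to 11.5 CPM in KO and 11.25 to 14.2 CPM in WT.

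**Figure D2:**
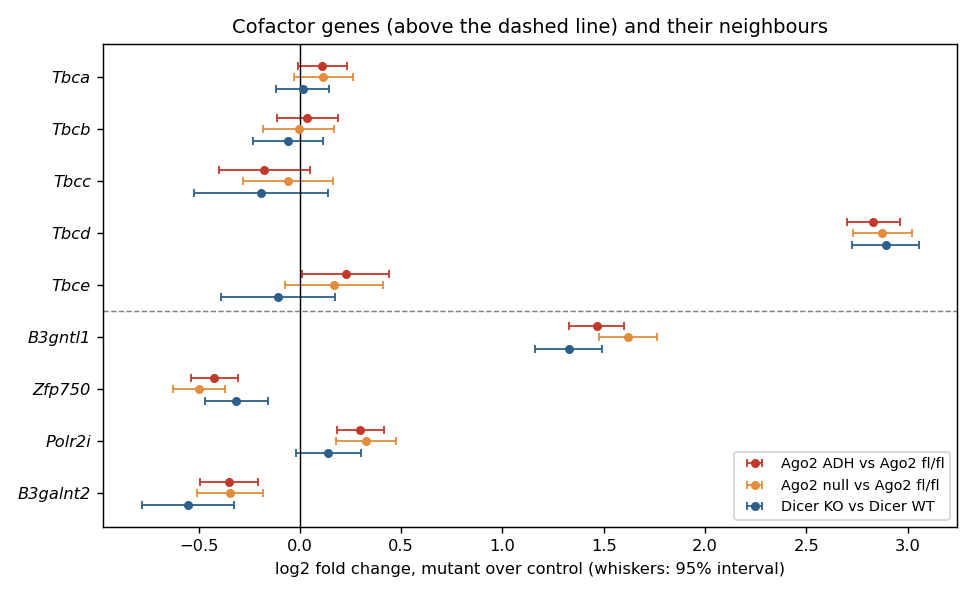
Log2 fold changes of mutant over control oocytes with 95% intervals from edgeR for the 5 cofactor genes and, below the dashed line, 4 genes that overlap them on the opposite strand, with 1 point per comparison. *Tbcd* stands at 2.83 to 2.89, *B3gntl1* at 1.33 to 1.62, and *Tbca*, *Tbcb*, *Tbcc* and *Tbce* lie between -0.19 and 0.23.

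Because reads were counted without regard to strand, genes that overlap a member on the other strand were read beside it. The last exons of *Tbcd* and of *B3gntl1*, a glycosyltransferase-like gene on the minus strand, share 237 bases in the GENCODE models (chromosome 11, 121616928 to 121617164), of which 15 are coding in *Tbcd*. This is 6.07% of the *Tbcd* and 8.28% of the *B3gntl1* exonic bases. No read was tallied as ambiguous in any library, so a read inside this stretch can stand in the counts of both genes and its strand cannot be told. *B3gntl1* had 1911, 1956 and 1823 counts in *Ago2* fl/fl, 4810, 5298 and 3642 in *Ago2* ADH, 5656 and 5273 in *Ago2* null, 1132, 1174 and 1374 in *Dicer* WT and 2455, 2144 and 2574 in *Dicer* KO libraries. It rose with *Tbcd*, with log2 fold changes of 1.46 (adjusted p = 7.18e-13), 1.62 (adjusted p = 5.45e-12) and 1.33 (adjusted p = 8.59e-11) in *Ago2* ADH, *Ago2* null and *Dicer* KO oocytes. The mean gain of *Tbcd* was 102.5 CPM in *Ago2* ADH, 107.0 in *Ago2* null and 97.8 in *Dicer* KO. That of *B3gntl1* was 56.2, 66.9 and 45.6 CPM. The ratio of *Tbcd* to *B3gntl1* counts was 0.518 ± 0.0227 (SD, n = 3) in *Ago2* fl/fl, 1.34 ± 0.0310 (SD, n = 3) in *Ago2* ADH, 1.24 ± 0.0139 (SD, n = 2) in *Ago2* null, 0.504 ± 0.0143 (SD, n = 3) in *Dicer* WT and 1.49 ± 0.0352 (SD, n = 3) in *Dicer* KO libraries. How many of the *B3gntl1* reads come from *Tbcd*, or the reverse, was not tested.

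*Zfp750*, a zinc finger gene that lies inside an intron of *Tbcd* on the opposite strand and shares no exonic base with it, moved the other way. Its counts were 17257, 18938 and 15760 in *Ago2* fl/fl against 11862, 13197 and 8864 in *Ago2* ADH and 12272 and 10728 in *Ago2* null libraries, and 11868, 13051 and 13161 in *Dicer* WT against 8812, 7039 and 7903 in *Dicer* KO. Its log2 fold change was -0.42 in *Ago2* ADH (adjusted p = 3.55e-06), -0.50 in *Ago2* null (adjusted p = 3.72e-06) and -0.31 in *Dicer* KO oocytes (adjusted p = 0.00175). *Tbcb* shares 325 bases, 23.0% of its exonic bases, with *Polr2i*, an RNA polymerase II subunit gene. *Polr2i* rose by 0.30 in *Ago2* ADH (adjusted p = 0.000178) and 0.33 in *Ago2* null (adjusted p = 0.00103), and had a value of 0.14 in *Dicer* KO (adjusted p = 0.136). *Tbce* shares 322 bases, 17.5% of its exonic bases, with *B3galnt2*, a glycosyltransferase gene that fell by 0.35, 0.35 and 0.55 in the 3 mutants (adjusted p = 0.000311, 0.00136 and 0.000343). The values of *Tbcb* in the *Ago2* mutants, and those of *Tbce* in all 3 mutants, can therefore hold reads of neighbours that did change.

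Levels of different genes were compared per kilobase of transcript as RPKM, the TMM-scaled CPM divided by the length. In *Ago2* fl/fl oocytes *Tbca* stood at 496.2 ± 47.7 (SD, n = 3), *Tbcb* at 37.2 ± 3.03, *Tbcc* at 18.1 ± 2.21, *Tbce* at 5.63 ± 0.176 and *Tbcd*, the lowest, at 4.46 ± 0.0640 RPKM. The order in *Dicer* WT oocytes was the same, with *Tbca* at 309.2 ± 13.0 (SD, n = 3) and *Tbcd* again last at 3.92 ± 0.188. In the mutants *Tbcd* left the last place. It ranked 3 of the 5 in *Ago2* ADH (30.7 ± 1.53 RPKM, SD, n = 3) and *Ago2* null oocytes (31.8 ± 0.0731, SD, n = 2), above *Tbcc* and below *Tbcb*, and 2 in *Dicer* KO oocytes (29.0 ± 0.801, SD, n = 3), above *Tbcb* at 24.2 ± 0.940. All neighbours in these orders differed by more than the larger of their SDs and in every library, except *Tbcc* and *Tbce* in *Dicer* WT and *Dicer* KO oocytes. The place of *Tbcc* rests on the 1164 bases of its GENCODE transcript: with the longer span of its RefSeq gene the order was kept in 3 of the 5 groups, and *Tbcc* fell below *Tbce* in the *Dicer* groups.

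**Figure D3:**
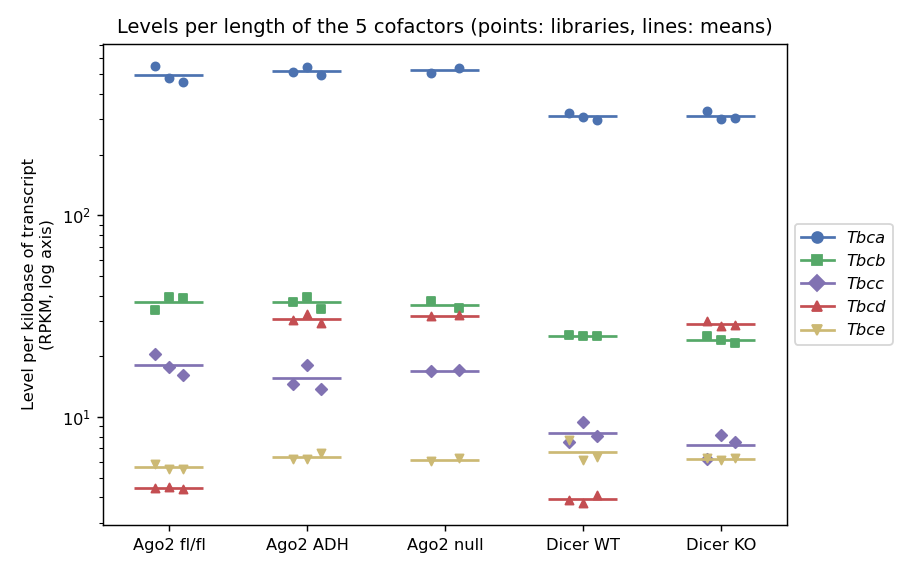
Levels of the 5 cofactor genes per kilobase of transcript (RPKM, log axis) in each group, with 1 point per library and lines at the means. *Tbcd* is the lowest of the 5 in *Ago2* fl/fl (4.46 RPKM) and *Dicer* WT oocytes (3.92 RPKM) and lies near *Tbcb* in the mutants (29.0 to 31.8 RPKM), while the other 4 genes keep their order.

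The balance between members that work in one complex changed with *Tbcd*. The ratio of *Tbcd* to *Tbce* levels per length was 0.793 ± 0.0246 (SD, n = 3) in *Ago2* fl/fl and 4.83 ± 0.403 (SD, n = 3) in *Ago2* ADH oocytes. It was 5.18 ± 0.139 (SD, n = 2) in *Ago2* null, 0.591 ± 0.0764 (SD, n = 3) in *Dicer* WT and 4.68 ± 0.100 (SD, n = 3) in *Dicer* KO oocytes. The control and mutant libraries did not overlap, with 0.816 the highest control and 4.404 the lowest mutant value. Against *Arl2*, the GTPase of the same complex, *Tbcd* went from 0.142 ± 0.00314 (SD, n = 3) in *Ago2* fl/fl to 0.897 ± 0.0341 (SD, n = 3) in ADH and 0.910 ± 0.0220 (SD, n = 2) in *Ago2* null, and from 0.182 ± 0.0194 in *Dicer* WT to 1.40 ± 0.0675 in *Dicer* KO oocytes (SD, n = 3 each). *Tbcd* made up 0.797% of the summed level of the 5 members in *Ago2* fl/fl, 5.05% in *Ago2* ADH, 5.19% in *Ago2* null, 1.11% in *Dicer* WT and 7.67% in *Dicer* KO oocytes, and *Tbca* between 82.3% and 88.3%. These are ratios of RNA, and protein was not measured here.

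The rest of the pathway was read from 4 lists, of which 35 genes were in the counts. Of 33 tested, 10 rose and 4 fell in *Ago2* ADH oocytes, against the 20.5% of all transcripts that rose and the 20.1% that fell. In *Ago2* null oocytes 12 rose and 3 fell of 33, beside 18.1% and 19.1% of all transcripts. In *Dicer* KO oocytes 10 rose and 4 fell of 32, beside 16.7% and 17.8%. The median log2 fold change of these genes was 0.15, 0.12 and 0.0059, beside 0.0069, 0.0018 and -0.0044 over all transcripts. Of the rises, 6, 7 and 8 in the respective mutants were tubulin genes, of which 13 were tested.

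Among ARL2 and its relatives, *Arl2* had log2 fold changes of 0.17 (adjusted p = 0.0308), 0.20 (adjusted p = 0.0344) and -0.05 (adjusted p = 0.713) in *Ago2* ADH, *Ago2* null and *Dicer* KO oocytes and did not pass the FDR of 1%. *Arl2bp*, which encodes a binding partner of ARL2, rose in all 3, by 1.41 (adjusted p = 1.57e-08), 1.45 (adjusted p = 1.09e-07) and 1.32 (adjusted p = 2.84e-05), from 3.05 to 4.84 CPM in control libraries to 6.45 to 13.65 CPM in mutant libraries. *Arl3*, a related GTPase gene, fell by 0.37 (adjusted p = 0.00575), 0.52 (adjusted p = 0.00174) and 0.56 (adjusted p = 0.00988). *Tbccd1*, whose product carries a TBCC-like domain, fell in *Ago2* ADH (log2 fold change -0.30, adjusted p = 0.00757), and had -0.14 in *Ago2* null (adjusted p = 0.206) and -0.30 in *Dicer* KO (adjusted p = 0.0516). *Rp2*, also with such a domain, and *Tbcel*, a relative of *Tbce*, passed in none, with values between 0.07 and 0.41 and between -1.82 and -0.55. Both were low, with 16 to 44 counts per library for *Rp2* and 1 to 45 for *Tbcel*. The standard errors were 0.40 to 0.46 and 0.56 to 0.64, so these values are loose.

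Of the 6 prefoldin genes, *Vbp1* rose in all 3 mutants, by 1.32 (adjusted p = 1.56e-12), 1.40 (adjusted p = 5.06e-10) and 1.67 (adjusted p = 6.86e-13), and it was at 62.8 to 75.3 CPM in control and 158.9 to 230.5 CPM in mutant libraries. *Pfdn5* rose and *Pfdn4* fell in both *Ago2* mutants, and the other 3 passed in none. Rises were thus 2, 2 and 1 of the 6 in *Ago2* ADH, *Ago2* null and *Dicer* KO, beside 20.5%, 18.1% and 16.7% of all transcripts. Falls were 1, 1 and 0 of the 6, beside 20.1%, 19.1% and 17.8%. Of 8 CCT genes tested, 1 rose in *Ago2* ADH and 2 in *Ago2* null, and none fell. Of 7 tested in *Dicer* KO, none rose and 2 fell. The shares of all transcripts are those just given. *Cct6b*, at 0.370 CPM or less in every library, was the gene not tested there. No CCT gene passed in all 3, and the share of all transcripts that did was not worked out. *Cct7* rose in *Ago2* ADH, *Cct3* and *Cct4* in *Ago2* null, and *Cct4* and *Cct5* fell in *Dicer* KO oocytes, each by at most 0.74 on the log2 scale. The opposite moves of *Cct4* in *Ago2* null (0.43) and *Dicer* KO (-0.74) differed by the test of the difference (1.13, adjusted p = 4.27e-05).

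Among the genes of alpha- and beta-tubulin, the proteins that the cofactors fold, 6 of 13 tested rose in *Ago2* ADH, 7 in *Ago2* null and 8 in *Dicer* KO oocytes. Of all transcripts 20.5%, 18.1% and 16.7% rose. One tubulin gene, *Tuba3b*, fell in each, beside 20.1%, 19.1% and 17.8% of all transcripts. *Tuba1a* rose by 1.84 (adjusted p = 0.000118), 1.91 (adjusted p = 0.00023) and 2.28 (adjusted p = 5.67e-05) from a level of at most 0.620 CPM in controls. *Tuba1c* rose by 1.58 (adjusted p = 3.40e-14), 1.60 (adjusted p = 3.71e-11) and 1.36 (adjusted p = 3.81e-12), from 65.4 to 71.8 CPM in controls to 161.5 to 225.9 CPM in mutants. *Tuba3b* fell by 1.61 (adjusted p = 1.09e-06), 1.41 (adjusted p = 4.05e-05) and 2.17 (adjusted p = 2.04e-06). These alpha-tubulin genes have close copies, and reads that align to several of them are set aside, which can lower their counts.

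**Figure D4:**
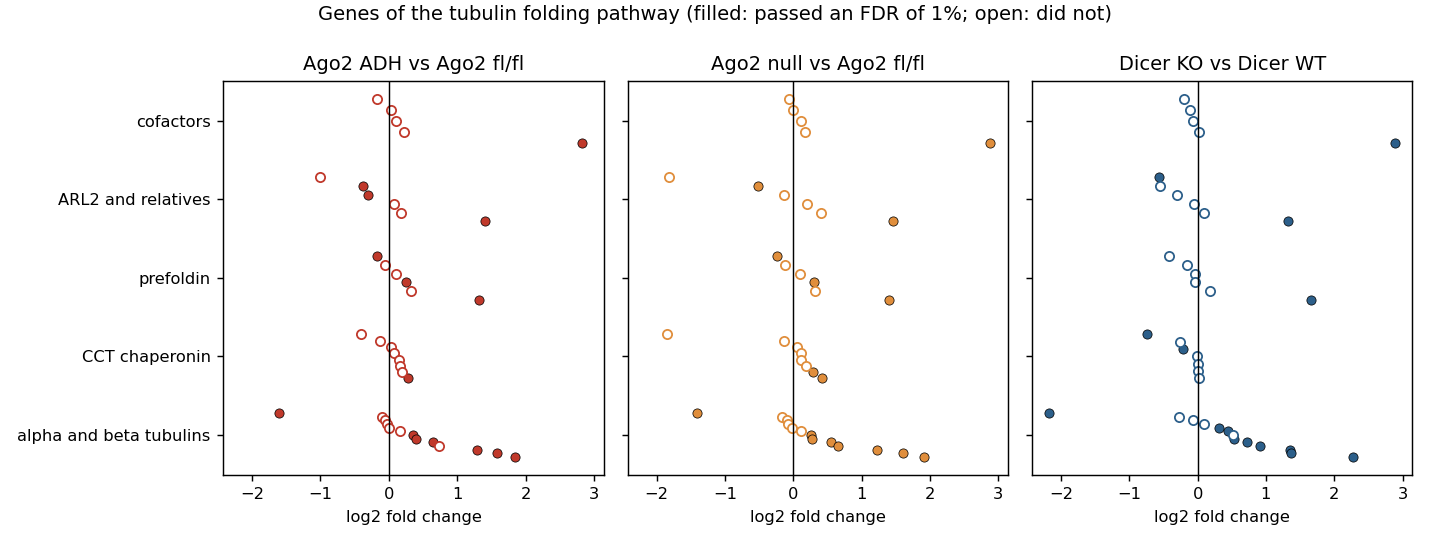
Log2 fold changes of the genes of 5 lists in the 3 mutants over their controls, with 1 point per gene, filled where it passed an FDR of 1% and open where it did not (vertical spread within a list only separates the points). *Tbcd*, at 2.83 to 2.89, lies to the right of every other gene shown, and *Tuba3b*, at -2.17 to -1.41, is the lowest filled point.

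Of 10348 other genes with a mean of at least 100 counts, the 5 whose levels followed *Tbcd* most closely were *Zfp473*, a zinc finger protein gene (Pearson's r = 0.9995), *Lonp2*, a peroxisomal protease gene (r = 0.9993), *Efhb*, an EF-hand protein gene (r = 0.9992), *Dusp12*, a phosphatase gene (r = 0.9991), and *Mt1*, which encodes a metallothionein (r = 0.999). The measure is r over 14 libraries of log2(CPM + 1), each value centred on the mean of the 8 *Ago2* or the 6 *Dicer* libraries. It mostly follows the shared step between control and mutant libraries, and r was at least 0.99 for 180 genes, 1.74% of those compared. *Mt1* went from a mean of 0.954 CPM in *Ago2* fl/fl to 139.9 in *Ago2* ADH and from 0.451 in *Dicer* WT to 111.5 in *Dicer* KO libraries. The minimum of 100 counts is a mean over all 14 libraries, and *Mt1* met it only through its mutant libraries. Whether others of the 180 genes did so was not tested. *Zfp473* went from 40.9 to 626.1 and from 45.5 to 680.1 CPM.

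**Figure D5:**
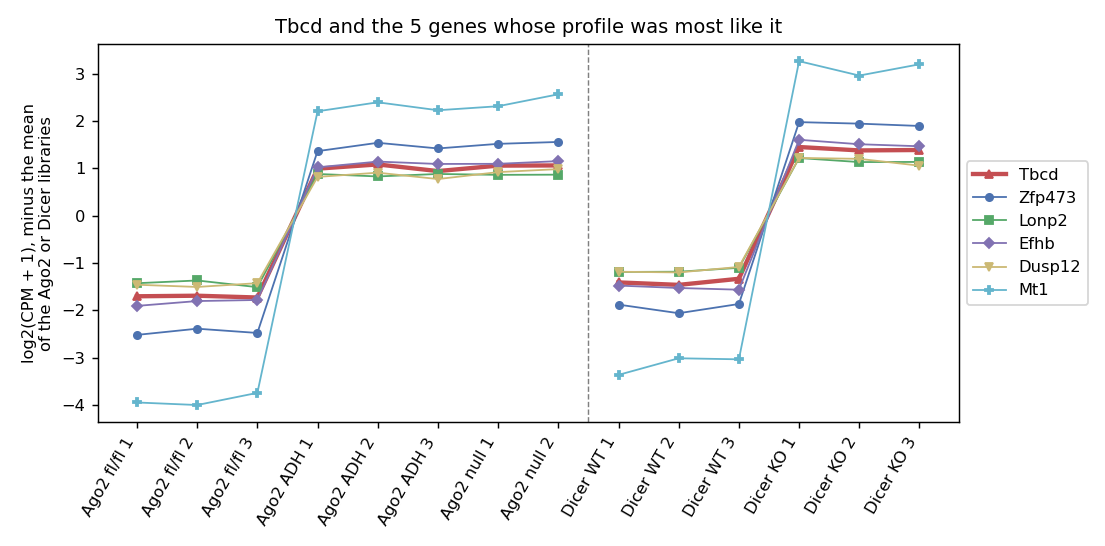
Log2(CPM + 1) of *Tbcd* and the 5 genes most like it in each library, minus the mean of the 8 *Ago2* or the 6 *Dicer* libraries (the dashed line parts the series, and lines only join the points of a gene). All 6 genes are low in the control and high in the mutant libraries, and the step is highest for *Mt1* and lowest for *Lonp2* and *Dusp12*.

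The other members followed no gene as closely. The genes most like *Tbca* were *Psma3*, a proteasome subunit gene (r = 0.8674), and *Rrnad1* (r = 0.8578). Those most like *Tbcb* were the ribosomal protein genes *Rps15* (r = 0.8303) and *Rpl28* (r = 0.7728), those most like *Tbcc* were *Pygl*, the liver glycogen phosphorylase gene (r = 0.8593), and *Pdzd9* (r = 0.8565), and those most like *Tbce* were *Sft2d2* (r = 0.8061) and *Acadsb*, an acyl-CoA dehydrogenase gene (r = 0.7957). Among the members, r with *Tbcd* was 0.303 for *Tbca*, -0.286 for *Tbcb*, -0.516 for *Tbcc* and 0.181 for *Tbce*. The points share library and depth, and these values are descriptions across 14 libraries.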

How the data were processed

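Gene expression was measured by RNA-seq in 14 oocyte libraries of 5 genotypes, grouped by their labels. The authors amplified cDNA from lysed oocytes, aligned paired-end reads to mm10 and refGene transcripts with TopHat, keeping up to 100 alignments per read, used htseq-count (intersection-strict, no strand) for counting, and deposited raw counts per RefSeq transcript, not normalized. The submitters' processing notes name TopHat2 2.0.7, HTSeq 0.6.1 and DESeq 1.10.0. Reads with several alignments have a tally of their own, which can lower the counts of genes with close copies.

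Each comparison was fitted on its own libraries with edgeR 4.0.16 in R 4.3.3 (filterByExpr with a minimum count of 10 and a minimum total of 15, TMM, quasi-likelihood test, Benjamini-Hochberg adjustment over all tested transcripts, FDR of 1%), and differences between *Ago2* and *Dicer* effects as interactions. The tests were run on simulated counts with the same dispersion for every transcript and far fewer changed transcripts than here. This does not give their error rate in these data. All 5 members passed the filter throughout. CPM were TMM-scaled over all 14 libraries. RPKM used the GENCODE M21 transcript paired with each RefSeq ID on GRCm38, also called mm10, and similar transcripts were sought with BLAST+ 2.17.0. Library pairs of a group differed by more than sampling noise (chi-square per degree of freedom 6.54 to 14.9). Floors cover counting error only.

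The members and lists were chosen with earlier results of these data known. The named genes were the members, the targeted genes, the genes with the highest r with a member (5 for *Tbcd*, 2 for the others), the *Arl2* list and, in the other lists, up to 3 genes called in one direction in all 3 mutants. Other genes named for a list's counts, and the neighbours on the opposite strand, were added after their values were seen. *Cct6a*, *Hbb-b1* and *Cd68* were not analysed here.

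Alternatives were DESeq2 1.42.0, RLE normalization, no expression filter, a minimum of 10 counts per library, an FDR of 5%, all 5 groups in one fit, 1 transcript per gene, transcripts summed per gene, CPM of the total count, the replicate number as a block, each library left out in turn and, added after seeing the data, the RefSeq span of *Tbcc* as its length.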

Additional observations from a re-analysis of the deposited data

How the results depend on the processing

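The rise of *Tbcd* kept its direction and passed the FDR of 1% in all 44 fits under the alternatives to the 3 comparisons with controls, with log2 fold changes of 2.78 to 2.85 in *Ago2* ADH, 2.84 to 2.90 in *Ago2* null and 2.85 to 2.93 in *Dicer* KO oocytes. Of 176 values of the other 4 members, 162 kept their direction and their side of the threshold. Without *Ago2* fl/fl replicate 1, *Tbca* passed in *Ago2* ADH oocytes (adjusted p = 0.00636; 0.00636 to 0.455 over its alternatives), so that the count of members called ranged from 1 to 2 with 1 library left out. The cause was not tested.

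Values near 0 changed sign. For *Tbcb* these were -0.00986 in *Ago2* ADH with all 5 groups in one fit and 0.0180 in *Ago2* null with at least 10 counts in every library, and for *Tbca* -0.000204 in *Dicer* KO without a filter. With 1 library left out, *Tbca* ranged from -0.0265 to 0.0455 in *Dicer* KO, from -0.0647 to 0.0237 in *Ago2* ADH vs. null and from -0.00779 to 0.126 for the *Ago2* ADH minus the *Dicer* KO effect. *Tbcb* ranged from -0.0385 to 0.0775 (*Ago2* ADH against fl/fl), from -0.0709 to 0.0511 (null against fl/fl), from -0.0355 to 0.0896 in *Ago2* ADH vs. null, from -0.0194 to 0.0923 for the *Ago2* ADH minus the *Dicer* KO effect and from -0.0425 to 0.0811 for the *Ago2* null minus the *Dicer* KO effect. *Tbcc* ranged from -0.126 to 0.0397 (*Ago2* null against fl/fl), from -0.161 to 0.0656 for the *Ago2* ADH minus and from -0.00274 to 0.200 for the *Ago2* null minus the *Dicer* KO effect. *Tbce* ranged from -0.180 to 0.000941 in *Dicer* KO and from -0.00118 to 0.0707 in *Ago2* ADH vs. null.

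Same-numbered libraries did not deviate together (r from -0.193 to 0.102). With so few libraries per group this cannot tell whether the numbers mark a shared collection. With the replicate number as a block, the *Tbcd* values were 2.83, 2.87 and 2.89, *Tbcb* had 0.0285 in *Ago2* null and *Tbce* -0.000694 in *Ago2* ADH vs. null, and the block lowered the number of pathway genes called in *Ago2* null oocytes from 15 to 9, and for the *Ago2* null minus the *Dicer* KO effect from 3 to 1. Where an *Ago2* null library was left out, the lone one was assumed to vary like the other groups. That last count was 1 to 3 with 1 library left out, with 1 without *Ago2* null replicate 2. For the *Ago2* ADH minus the *Dicer* KO effect the pathway genes called went from 3 to 5 with at least 10 counts in every library and to 6 at an FDR of 5%. With the RefSeq span of *Tbcc*, chosen after seeing the data, 3 of the 5 groups kept the order of levels. The mean length over a gene's transcripts gives the same values, since each member has 1. Depth limits little here, but the interval of *Tbcc* in *Dicer* KO oocytes still reached -0.52 on the log2 scale.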
